A study of Mus musculus with 6 samples.

Results

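The genes described here are the TAM receptors Axl, Mertk and Tyro3, their ligands Gas6 and Pros1, the bridging protein gene Mfge8 and the phosphatidylserine receptor gene Timd4. They were chosen by gene name, with earlier results of these data known, and all 7 were found among the 31883 genes of the deposited table. Expression was measured by poly(A) RNA sequencing in 3 libraries labelled CD22 knockout and 3 wild type libraries of mouse macrophages grown from bone marrow. The labels give the genotypes as C57Bl/6 global CD22 knockout and C57Bl/6 wild type. In both groups marrow cells were grown with L929-conditioned medium, a source of macrophage growth factor, until day 7, and IL-4 at 20 ng/mL was then given for 48 hours, with the conditioned medium at 25%. CD22 is a Siglec, a receptor for sialic acids, and IL-4 drives macrophages to the alternatively activated state. The labels do not say how old the mice were, how the CD22 allele was made or whether each library had its own animal, so a p-value here measures library-to-library spread alone, and that spread may be technical.

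Phagocytes clear dying cells by a process called efferocytosis, in which phosphatidylserine exposed on the dying cell is the main signal. Gas6 and protein S, the product of Pros1, bind phosphatidylserine through domains that are gamma-carboxylated with the help of vitamin K, and bridge the dying cell to the receptor tyrosine kinases Tyro3, Axl and Mertk. Mertk takes Gas6 and protein S, whereas Axl takes Gas6. Mfge8 bridges phosphatidylserine to alpha-v integrins, and Timd4 is a membrane protein that holds phosphatidylserine directly. TAM receptors are also known for damping cytokine and interferon signalling in macrophages.

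Values are FPKM (fragments per kilobase of transcript, scaled to the mapped fragments of each library), which are per length and so allow levels to be compared between genes. Depth is unknown because no read counts were given, and the ratios of low values between libraries placed the depth of the libraries labelled CD22 knockout at 1.11 times that of wild type library 1, and wild type libraries 2 and 3 at 1.01 and 0.969 times. The targeted gene Cd22 had 8.85, 8.21 and 9.53 FPKM in the libraries labelled CD22 knockout and 8.95, 9.36 and 10.6 FPKM in the wild type libraries. The groups overlapped, so the gene-level value does not separate the genotypes (limma log2 fold change -0.11 with a 95% interval of -0.30 to 0.08, adjusted p = 0.695). The values do not separate exons, so they do not check a deletion of part of the gene, and directions are given for the libraries as labelled. All 10 macrophage markers and all 8 markers of IL-4-treated macrophages reached 1 FPKM, with macrophage sums of 6990 to 9260 FPKM in the libraries labelled CD22 knockout and 7440 to 9960 FPKM in wild type. None of the dendritic cell, neutrophil, T and NK cell or mast cell and basophil markers reached 1 FPKM, and Siglech, Ly6g, Camp, Cd3d, Cd3g, Ncr1, Fcer1a and Ms4a2 were listed at 0 in every library. Wild type library 1 stood apart with 50.9 FPKM of 8 adipocyte markers and 7.21 FPKM of 8 skeletal muscle markers, and wild type library 2 with 9.02 FPKM of 6 epididymis markers, so results are also given without these 2 libraries.

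The result turned on the receptors, with Axl higher in the libraries labelled CD22 knockout and Mertk not called. Their promoters, the 250 bases before each RefSeq gene start in GRCm38.p6, are shown to set the receptor that was called beside the one that was not. Axl is on the minus strand (chr7:25788734-25788983) and Mertk on the plus strand (chr2:128698665-128698914). Capitals mark the GC box, GGGCGG on either strand.
Axl: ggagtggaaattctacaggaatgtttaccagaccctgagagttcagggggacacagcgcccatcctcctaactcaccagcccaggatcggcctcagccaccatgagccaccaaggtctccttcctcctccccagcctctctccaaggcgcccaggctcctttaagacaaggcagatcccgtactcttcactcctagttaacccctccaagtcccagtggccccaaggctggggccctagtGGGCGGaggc
Mertk: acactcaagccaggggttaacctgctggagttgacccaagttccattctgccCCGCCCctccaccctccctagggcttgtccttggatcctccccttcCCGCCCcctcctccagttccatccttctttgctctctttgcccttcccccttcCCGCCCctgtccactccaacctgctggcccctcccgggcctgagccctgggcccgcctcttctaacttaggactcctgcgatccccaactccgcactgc
The Axl window held 1 GC box, 10 bases before the start, and the Mertk window held 3, all on the opposite strand. Of 32851 RefSeq promoter windows of the same length, 32.7% held a GC box, and of the 7 genes described here Timd4 alone had none in its window. Also searched on both strands were TGACTCA (an AP-1 site), TTC and GAA with 4 bases between them (a STAT6-type site), and AGGTCA repeated after 4 bases (the DR4 element that LXR binds), and neither window held any of these. The AP-1 letters were in 4.46% of all windows, the STAT6-type letters in 5.85% and the DR4 letters in 0.0152%.

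Axl (ENSMUSG00000002602), a receptor for Gas6 known in mouse macrophages as one that inflammatory signals raise, had 14.5, 17.1 and 15.7 FPKM in the libraries labelled CD22 knockout and 8.53, 6.44 and 5.94 FPKM in the wild type libraries. Every library labelled CD22 knockout lay above every wild type library, and the gap between the groups was wider than the range within either group. The log2 fold change on the log2(FPKM + 1) scale was 1.08, with a standard error of 0.118 and a 95% interval of 0.82 to 1.35 (limma, 2-sided, adjusted p = 0.00365 over 10777 genes). It ranked 10 of the genes tested by p. In the authors' deposited table its q was 4.78e-20, with rank 7 by p, and it was marked significant. The call was lost when no filter on low values was applied (adjusted p = 0.153, against 0.000588 to 0.0288 over the other 13 alternatives), with the fold change still at 1.08. It was kept with each library left out, with log2 fold changes of 0.99 to 1.22, and without wild type libraries 1 and 2 (1.27, limma, adjusted p = 0.0288, the remaining wild type library being assumed to vary like the others). Mitochondrial genes made up 17.2%, 20.4% and 15.6% of summed FPKM in the libraries labelled CD22 knockout and 11.8%, 11.7% and 16.5% in wild type, and their part in the Axl difference was not tested. In bulk RNA, a different share of cells that express a gene and a different amount of RNA per cell cannot be told apart.

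Mertk (ENSMUSG00000014361), the receptor for Gas6 and protein S that macrophages use for steady clearance of dying cells, had 13.6, 14.4 and 15.9 FPKM in the libraries labelled CD22 knockout and 13.1, 12.1 and 13.1 FPKM in wild type. The groups did not overlap, but the lowest library labelled CD22 knockout lay close to the highest wild type ones. Its log2 fold change was 0.18, with a 95% interval of 0.00 to 0.36, and it was not called (limma, unadjusted p = 0.0459, adjusted p = 0.439). Mertk had a p of 0.0156 and a q of 0.442 in the authors' deposited table. Its interval lay wholly below that of Axl. Tyro3 (ENSMUSG00000027298), the TAM receptor best known from the nervous system, was close to 0, with 0.0597, 0.0341 and 0.0572 FPKM in the libraries labelled CD22 knockout and 0.0818, 0.0257 and 0.0433 FPKM in wild type. Wild type library 1 held the highest and wild type library 2 the lowest value, so the groups overlapped, and Tyro3 fell under the filter for testing. At this level and an unknown depth a difference in Tyro3 would not be detectable.

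**Figure D1:**
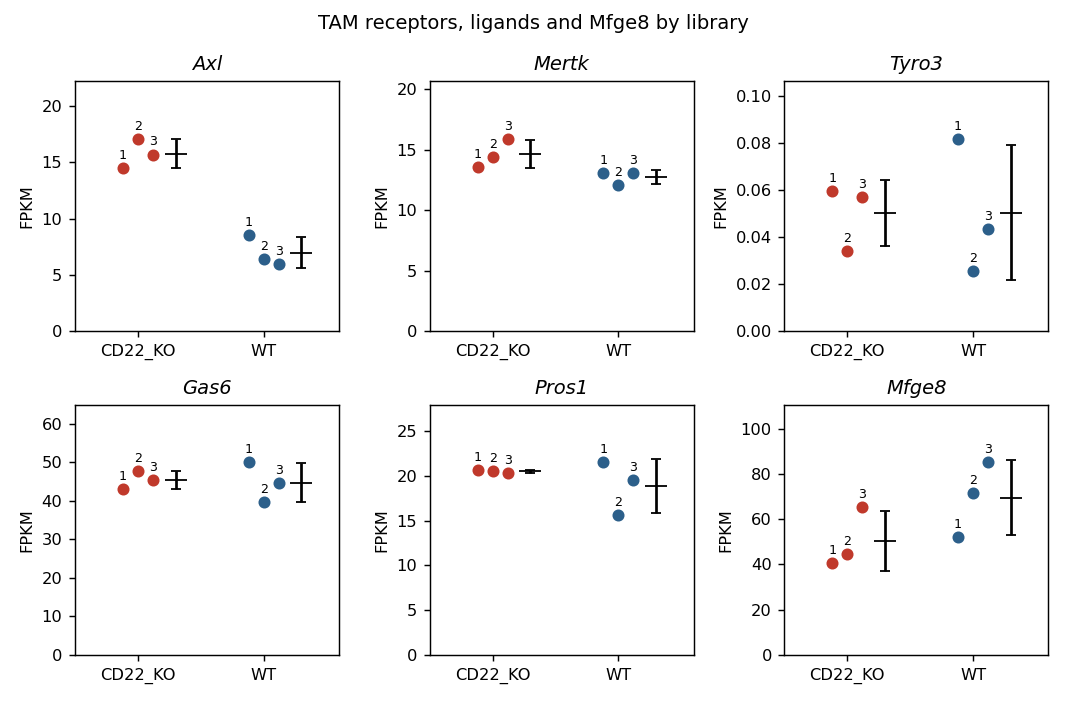
FPKM (vertical axes, each starting at 0) of Axl, Mertk, Tyro3, Gas6, Pros1 and Mfge8 in the 3 CD22_KO and 3 WT libraries, with library numbers above the points and mean ± SD at the right of each group. Axl separates the groups by more than their ranges, with CD22_KO at 14.5 to 17.1 and WT at 5.94 to 8.53 FPKM, while Gas6, Pros1, Tyro3 and Mfge8 overlap.

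The balance of the receptors was read within each library, where scaling of the library drops out. The log2 ratio of Axl to Mertk was 0.09, 0.25 and -0.02 in the libraries labelled CD22 knockout and -0.62, -0.90 and -1.14 in wild type. Axl and Mertk were thus at near parity in the libraries labelled CD22 knockout, with Axl above Mertk in 2 of 3, whereas Mertk was above Axl in 3 of 3 wild type libraries. The mean ratio was 0.11 ± 0.137 in the libraries labelled CD22 knockout and -0.89 ± 0.262 in wild type (SD, n = 3 each), a difference of 1.00, and the groups did not overlap (2-sided exact permutation test, p = 0.1, the smallest that 3 against 3 libraries allow; adjusted p = 0.225 over 9 measures of balance). With a library left out the difference was 0.87 to 1.13, and without wild type libraries 1 and 2 it was 1.25.

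As a share of the summed FPKM of the 3 receptors, Axl made up 51.5%, 54.3% and 49.5% in the libraries labelled CD22 knockout and 39.3%, 34.8% and 31.1% in wild type. Mertk made up 48.3%, 45.6% and 50.3% in the libraries labelled CD22 knockout and 60.3%, 65.1% and 68.7% in wild type. Shares of a sum move against each other by construction, and the FPKM of Mertk itself was not lower. Tyro3 added 0.108% to 0.212% in the libraries labelled CD22 knockout and 0.139% to 0.377% in wild type. The summed receptor FPKM was 28.2, 31.5 and 31.6 in the libraries labelled CD22 knockout and 21.7, 18.5 and 19.1 in wild type, again with no overlap. The mean sum was 30.5 ± 1.94 FPKM in the libraries labelled CD22 knockout and 19.8 ± 1.70 FPKM in wild type (SD, n = 3 each; exact permutation test, p = 0.1, adjusted p = 0.225). The ratios to Tyro3 carried the spread of a transcript near 0. Log2 Axl over Tyro3 was 8.33 ± 0.561 in the libraries labelled CD22 knockout and 7.26 ± 0.648 in wild type (SD, n = 3 each; exact permutation test, p = 0.2), and log2 Mertk over Tyro3 was 8.23 ± 0.454 in the libraries labelled CD22 knockout and 8.15 ± 0.78 in wild type (exact permutation test, p = 1.0).

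**Figure D2:**
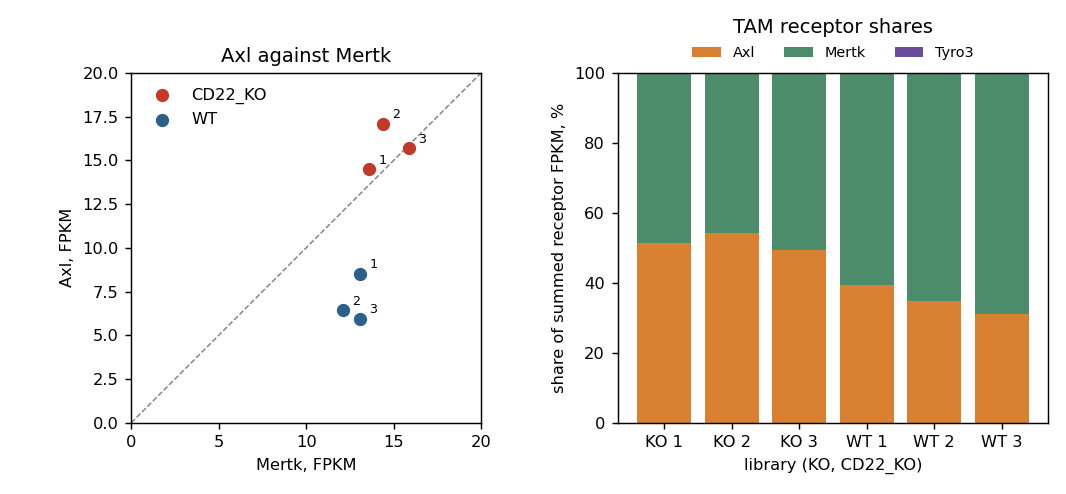
Left, Axl against Mertk in FPKM with 1 point per library and a dashed line of equal level. Right, the shares of Axl, Mertk and Tyro3 in the summed receptor FPKM of each library, in percent, with Tyro3 too small to see. The CD22_KO libraries lie near the line (log2 ratios of -0.02 to 0.25) and the WT libraries below it (-1.14 to -0.62).

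Neither ligand was called. Gas6 (ENSMUSG00000031451), the ligand of all TAM receptors, had 42.9, 47.7 and 45.4 FPKM in the libraries labelled CD22 knockout and 49.9, 39.6 and 44.6 FPKM in wild type. The wild type libraries held both the highest and the lowest value. The log2 fold change was 0.02 with a 95% interval of -0.18 to 0.23 (limma, adjusted p = 0.953), so changes of Gas6 of the size seen for Axl lie outside the interval. Pros1 (ENSMUSG00000022912), which encodes protein S, a cofactor that limits blood clotting as well as a ligand of Mertk and Tyro3, had 20.7, 20.5 and 20.3 FPKM in the libraries labelled CD22 knockout and 21.5, 15.6 and 19.5 FPKM in wild type. The libraries labelled CD22 knockout were nearly equal and lay within the wild type range. Its log2 fold change was 0.13 with a 95% interval of -0.10 to 0.36 (limma, adjusted p = 0.705). It was 0.00 without wild type library 2, the lowest of the 6, and 0.22 without wild type library 1, the highest.

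Gas6 stood above Pros1 in every library, and the log2 ratio of Gas6 to Pros1 was 1.14 ± 0.0849 in the libraries labelled CD22 knockout and 1.25 ± 0.0821 in wild type (SD, n = 3 each; exact permutation test, p = 0.3, adjusted p = 0.45). The sum of both ligands was 65.8 ± 2.26 FPKM in the libraries labelled CD22 knockout and 63.5 ± 8.08 FPKM in wild type (SD, n = 3 each; exact permutation test, p = 0.8, adjusted p = 0.9). Set against the receptor sum of the same library, ligand transcript was 2.26, 2.16 and 2.08 times receptor transcript in the libraries labelled CD22 knockout and 3.29, 2.98 and 3.36 times in wild type. These last ratios were not tested. Gm14011 lies antisense to Mertk and is not analysed here. Tmem255b overlaps Gas6 on the opposite strand and reached at most 0.0317 FPKM, and within Mertk lies the small nucleolar RNA gene Gm23172, at most 0.243 FPKM. The library kit kept strand, but the labels do not say whether counting used it.

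Mfge8 (ENSMUSG00000030605), the bridge to integrins, was the most variable of the abundant genes among the 7, with 40.8, 44.5 and 65.4 FPKM in the libraries labelled CD22 knockout and 51.9, 71.4 and 85.0 FPKM in wild type. Library 3 was the highest of each group, and the groups overlapped. The mean was 50.3 ± 13.3 FPKM in the libraries labelled CD22 knockout and 69.4 ± 16.6 FPKM in wild type (SD, n = 3 each), a log2 fold change of -0.46 with a 95% interval of -1.07 to 0.15 (limma, adjusted p = 0.559). The interval spans 0, so neither a lower nor a higher level is shown. The log2 fold change was -0.30 without wild type library 3 and -0.78 without wild type libraries 1 and 2, and was not called in either case (limma, adjusted p of 0.679 and 0.795). Timd4 (ENSMUSG00000055546), a receptor of resident macrophages such as those of the mouse peritoneum, was listed at 0 FPKM in all 6 libraries. Among the other markers of such cells, Gata6, Lyve1, Vsig4 and Cd163 did not exceed 0.0211, 0.0463, 0.187 and 1.22 FPKM. Folr2 averaged 109 FPKM in the libraries labelled CD22 knockout and 93.5 FPKM in wild type, with groups that overlapped. For 2 of the 8 markers, Marco and Icam2, every library labelled CD22 knockout lay above every wild type one, beside 6.43% of all genes tested. Marco averaged 10.1 FPKM in the libraries labelled CD22 knockout and 6.52 FPKM in wild type. Icam2 averaged 2.81 FPKM in the libraries labelled CD22 knockout and 2.57 FPKM in wild type. Neither was called (limma, adjusted p of 0.2 and 0.706).

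**Figure D3:**
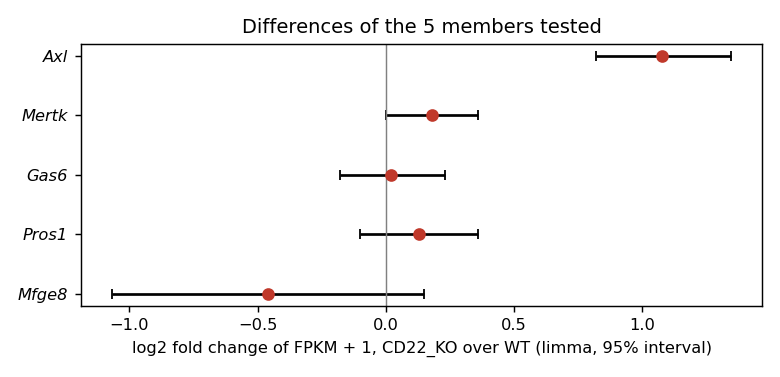
Log2 fold change on the log2(FPKM + 1) scale, CD22_KO over WT, for the 5 genes tested, with limma 95% intervals as bars and a line at 0. The Axl interval (0.82 to 1.35) stands apart from the others, and the Mfge8 interval (-1.07 to 0.15) is the widest.

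In all, 5 of the 7 genes passed the filter of at least 1 FPKM in at least 3 libraries. Limma called 1 of them, Axl, as higher, beside 0.148% of all genes tested that were called higher, 0.26% called lower and 0.408% called in either direction. Axl and Mertk had groups that did not overlap, both higher, beside 6.43% of all genes tested with no overlap in that direction. An unadjusted p under 0.05 was reached by Axl and Mertk, beside 11.0% of all genes. The 7 genes were chosen with earlier results of these data known, so these counts support nothing. The order of levels from high to low was Mfge8, Gas6, Pros1, Axl, Mertk and Tyro3 by the mean of the libraries labelled CD22 knockout, and Mfge8, Gas6, Pros1, Mertk, Axl and Tyro3 by the mean of the wild type libraries, with Timd4 at 0. Neighbours in that order overlapped in the libraries labelled CD22 knockout for Mfge8 and Gas6 and for Axl and Mertk, and for no pair in wild type. Against the genes tested, the mean of Axl lay at percentile 75.1 in the libraries labelled CD22 knockout and 51.2 in wild type, and that of Mertk at 73.4 in the libraries labelled CD22 knockout and 69.5 in wild type.

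Axl lies on chromosome 7 from 25757273 to 25788705 on the minus strand (GRCm38), 5.08 Mb from Cd22, which spans 30865402 to 30880342 on the same chromosome. Mfge8 is also on chromosome 7, 48.3 Mb from Cd22, from 79133768 to 79149060. Mertk (128698956 to 128802894) and Tyro3 (119797733 to 119818104) are on chromosome 2 and Gas6 (13465374 to 13494490) is on chromosome 8. Pros1 (62854307 to 62929346) is on chromosome 16 and Timd4 (46810800 to 46844332) on chromosome 11. Within 10 Mb of Cd22, 153 other genes were tested and 2 were called (1.31%, beside 0.408% of all genes tested), Axl itself as higher and Gm2058 as lower. Within 20 Mb, 3 of 306 were called (0.98%), Axl again among them. Limma called 0 of the 107 within 5 Mb, where an unadjusted p under 0.05 was reached by 10 (9.35%, beside 11.0% of all genes tested). Of the 6 tested genes nearest to Axl, limma called 0, with 0 at an unadjusted p under 0.05 (adjusted p of 0.519 to 0.991). All 6 lie on the side of Axl away from Cd22, so they do not cover the stretch between Axl and Cd22. Hnrnpul1, the nearest at 2.52 kb, had a log2 fold change of -0.01, Ccdc97 0.02 and Tgfb1, the gene of a cytokine released by phagocytes after engulfment, 0.07. Whether DNA linked to the CD22 allele bears on Axl was not tested.

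Markers of other cells that express TAM genes were set beside these results. The summed adipocyte markers were 10.8, 13.0 and 3.68 FPKM in the libraries labelled CD22 knockout and 50.9, 13.4 and 17.7 FPKM in wild type. The summed endothelial markers were 11.6 to 12.2 FPKM in the libraries labelled CD22 knockout and 12.8 to 16.6 FPKM in wild type. For 4 of the 7 markers every library labelled CD22 knockout lay below every wild type one, beside 10.7% of all genes tested. Of these 4, Vwf had 8.1, 8.07 and 8.97 FPKM in the libraries labelled CD22 knockout and 12.3, 10.1 and 11.9 FPKM in wild type. Its log2 fold change was -0.4 (limma, unadjusted p = 0.000907, adjusted p = 0.116). Kdr averaged 0.698 FPKM in the libraries labelled CD22 knockout and 1.26 FPKM in wild type (limma, unadjusted p = 0.00239, adjusted p = 0.177). Cdh5 and Cldn5, also among the 4, did not exceed 0.498 and 0.0824 FPKM and were not tested. Limma called 0 of the endothelial markers, and Emcn was at 0 in 5 of 6 libraries. Pecam1, another endothelial marker, averaged 2.4 FPKM in the libraries labelled CD22 knockout and 1.8 FPKM in wild type, with groups that overlapped. Fibroblast and stroma markers summed to 1.03 to 3.72 FPKM in the libraries labelled CD22 knockout and 2.12 to 2.57 FPKM in wild type. B cell markers summed to 8.38 to 9.81 FPKM in the libraries labelled CD22 knockout and 7.28 to 9.26 FPKM in wild type. Wild type library 1, with the highest adipocyte sum, also had the highest wild type Axl, Gas6 and Pros1. Without it the log2 fold change of Axl was 1.22. The part of such transcripts in the values of Axl, Mfge8 and the ligands was not tested.

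By the root mean square difference between centred log2(FPKM + 1) profiles over the 6 libraries, the genes most like Axl were Capza1 (0.165), an actin capping protein subunit, Rab4a (0.170), a GTPase of endosome recycling, and Siglece (0.192), a Siglec receptor. Capza1 had 70.7, 65.6 and 67.8 FPKM in the libraries labelled CD22 knockout and 34.7, 36.3 and 31.1 FPKM in wild type, a value that is uncertain because its pseudogene Capza1-ps1, also in the table, can share reads with it (limma, adjusted p = 0.00046, and 0.0528 with no filter on low values). Capza1-ps1, named after its values were seen, was called in the opposite direction, at means of 21.4 FPKM in the libraries labelled CD22 knockout and 69.7 FPKM in wild type (by limma, -1.66 on the log2 scale at an adjusted p of 2.5e-06). Rab4a had 5.95, 5.74 and 6.15 FPKM in the libraries labelled CD22 knockout and 2.08, 2.15 and 2.11 FPKM in wild type (limma, adjusted p = 3.8e-05). Siglece had 10.9, 12.4 and 8.92 FPKM in the libraries labelled CD22 knockout and 7.74, 5.07 and 4.74 FPKM in wild type, highest in wild type library 1 as Axl was, and was not called (limma, adjusted p = 0.194, and 0.0239 without wild type library 1). Nearest to Mertk were Zcchc7 (0.0173), Tpra1 (0.0192) and B4galt4 (0.0207), at differences of 0.19, 0.17 and 0.16 on the log2 scale.

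The genes that surround the TAM receptors in efferocytosis were described in 9 lists by role, with 104 genes, of which 91 passed the filter. Limma called 2 of the 91 (2.20%, beside 0.408% of all genes tested), and both rose. These are Scarf1 and C1qa, which were already known to be called when the lists were written, so the count supports nothing. An unadjusted p under 0.05 was found for 11 of the 91 (12.1%, beside 11.0% of all genes), and the median log2 fold change was -0.02, as over all genes tested.

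Among other phosphatidylserine receptors, limma called 1 of 9 tested genes as higher and 0 as lower, beside 0.408% of all genes tested called either way. Called or not, 4 were higher and 5 lower. The median log2 fold change was -0.01, with 1 at an unadjusted p under 0.05. In these lists CD22_KO and WT stand for the libraries so labelled, and means are given with the SD over n = 3 each. Scarf1, a scavenger receptor that also takes up dying cells, had 13.3, 14.0 and 11.8 FPKM in CD22_KO and 8.04, 7.98 and 9.52 FPKM in WT. The groups did not overlap, at a limma log2 fold change of 0.57 and an adjusted p of 0.0276. The call was lost on leaving out library 1 or 2 of either group (0.0663 to 0.148), with no filter (0.335) and without both WT 1 and WT 2 (0.559). Stab1, stabilin-1, averaged 53.5 ± 11.1 FPKM in CD22_KO and 44.3 ± 3.85 FPKM in WT, and was not called (limma, adjusted p = 0.592). Cd300lf, a CD300 receptor for phosphatidylserine in mouse, averaged 3.71 ± 0.401 FPKM in CD22_KO and 4.49 ± 0.901 FPKM in WT (limma, adjusted p = 0.547). Stab2, Adgrb1, Havcr1, Timd2, Megf10 and Ager stayed under 1 FPKM in every library.

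Among other opsonins and bridging molecules, limma called 1 of 8 tested genes as higher and 0 as lower, beside the same 0.408%. Called or not, 4 were higher and 4 lower, and the median was 0.05. An unadjusted p under 0.05 was found for 3 of the 8, the C1q chains, all 3 higher. Counting both directions, the groups did not overlap for 5 of the 8, beside 17.1% of all genes tested. The same count was 6 of 15 in the phagosome maturation list, where genes differed in direction. C1qa, a chain of complement C1q that marks dying cells for uptake, had 596, 641 and 568 FPKM in CD22_KO and 389, 441 and 388 FPKM in WT. The groups did not overlap, at a limma log2 fold change of 0.57 and an adjusted p of 0.0459, close to the threshold. The call was lost on leaving out CD22_KO 1, CD22_KO 2, WT 1 or WT 3 (adjusted p of 0.111 to 0.204), with no robust moderation (0.0642), with no filter (0.296) and without both WT 1 and WT 2 (0.37). C1qb and C1qc, the partner chains, each had a log2 fold change of 0.31 and were not called (limma, adjusted p of 0.337 and 0.297).

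Genes that prepare the ligands or cut the receptors held no call, with 0 of 5 in the vitamin K cycle and 0 of 5 among sheddases and their inhibitors (limma, 1 and 0 at an unadjusted p under 0.05). Ggcx, the carboxylase that modifies Gas6 and protein S, had 4.17, 4.23 and 4.6 FPKM in CD22_KO and 3.61, 2.94 and 3.93 FPKM in WT. The groups did not overlap, but the log2 fold change of 0.25 was not called (limma, adjusted p = 0.372). Vkorc1, which recycles vitamin K, averaged 37.6 ± 4.45 FPKM in CD22_KO and 33.6 ± 1.46 FPKM in WT. Its paralog Vkorc1l1 averaged 10.5 ± 1.04 FPKM in CD22_KO and 11.0 ± 0.593 FPKM in WT. Among the sheddase genes, Adam10 and Adam17 are known to release the outer part of TAM receptors. Adam10 averaged 49.0 ± 2.01 FPKM in CD22_KO and 54.6 ± 3.99 FPKM in WT. Rhbdf2, a partner of Adam17, averaged 27.4 ± 1.74 FPKM in CD22_KO and 23.6 ± 2.76 FPKM in WT. Timp1, a metalloproteinase inhibitor, averaged 12.9 ± 1.21 FPKM in CD22_KO and 11.5 ± 0.122 FPKM in WT. None of these was called (limma, adjusted p of 0.457 to 0.826).

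In the lists on signalling and engulfment, limma called 0 of 16 genes of TAM signalling and feedback and 0 of 12 of the engulfment actin module. It also called 0 of 15 of phagosome maturation and 0 of 8 integrin and LRP1 genes. An unadjusted p under 0.05 was found for 1, 2, 3 and 0 of them, and the medians were -0.04, -0.04, -0.05 and -0.01. Cblb, a ubiquitin ligase that restrains TAM signalling in mouse natural killer cells, had 21.6, 20.6 and 21.9 FPKM in CD22_KO and 30.3, 23.4 and 28.0 FPKM in WT. The groups did not overlap, but the log2 fold change of -0.33 was not called (limma, unadjusted p = 0.00586, adjusted p = 0.237). The exchange factor Vav1 averaged 37.9 ± 2.94 FPKM in CD22_KO and 34.0 ± 0.9 FPKM in WT. Its relative Vav3 averaged 10.0 ± 0.994 FPKM in CD22_KO and 11.5 ± 0.856 FPKM in WT, on the other side of 0 (limma, adjusted p of 0.536 and 0.491).

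In the actin module, Dock2, a Rac exchange factor of leukocytes, averaged 41.7 ± 2.93 FPKM in CD22_KO and 51.5 ± 7.25 FPKM in WT. The adaptor Crk averaged 27.7 ± 0.669 FPKM in CD22_KO and 31.6 ± 2.51 FPKM in WT. The GTPase Rac2 averaged 95.3 ± 8.52 FPKM in CD22_KO and 84.2 ± 6.25 FPKM in WT. None was called (limma, adjusted p of 0.343, 0.431 and 0.523). In phagosome maturation, Slc2a1, a glucose transporter that rises in mouse phagocytes taking up dying cells, averaged 33.4 ± 2.25 FPKM in CD22_KO and 27.2 ± 1.61 FPKM in WT. The autophagy enzyme Atg7 averaged 12.6 ± 0.703 FPKM in CD22_KO and 15.3 ± 0.956 FPKM in WT. Rab5a, a GTPase of early endosomes, averaged 15.6 ± 1.32 FPKM in CD22_KO and 17.9 ± 0.866 FPKM in WT. None was called here either (limma, adjusted p of 0.235, 0.267 and 0.427). Itgb5, a chain of an integrin that binds Mfge8, averaged 88.5 ± 3.16 FPKM in CD22_KO and 85.2 ± 2.13 FPKM in WT. Lrp1, an engulfment receptor, averaged 61.1 ± 5.72 FPKM in CD22_KO and 66.9 ± 6.55 FPKM in WT. Itgb2, the shared chain of leukocyte integrins, averaged 893 ± 16.3 FPKM in CD22_KO and 953 ± 63.0 FPKM in WT. These were not called (limma, adjusted p of 0.836, 0.685 and 0.797).

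Transcription factors and nuclear receptors known to raise TAM genes, LXR and PPAR genes included, had 0 of 13 called and 0 with an unadjusted p under 0.05 (limma), with a median of -0.02. Maf averaged 10.6 ± 1.17 FPKM in CD22_KO and 9.2 ± 0.852 FPKM in WT. Pparg averaged 18.1 ± 0.823 FPKM in CD22_KO and 20.5 ± 2.5 FPKM in WT. Stat6, which carries the IL-4 signal, averaged 45.5 ± 2.34 FPKM in CD22_KO and 50.2 ± 4.06 FPKM in WT. None was called (limma, adjusted p of 0.521, 0.558 and 0.596).

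**Figure D4:**
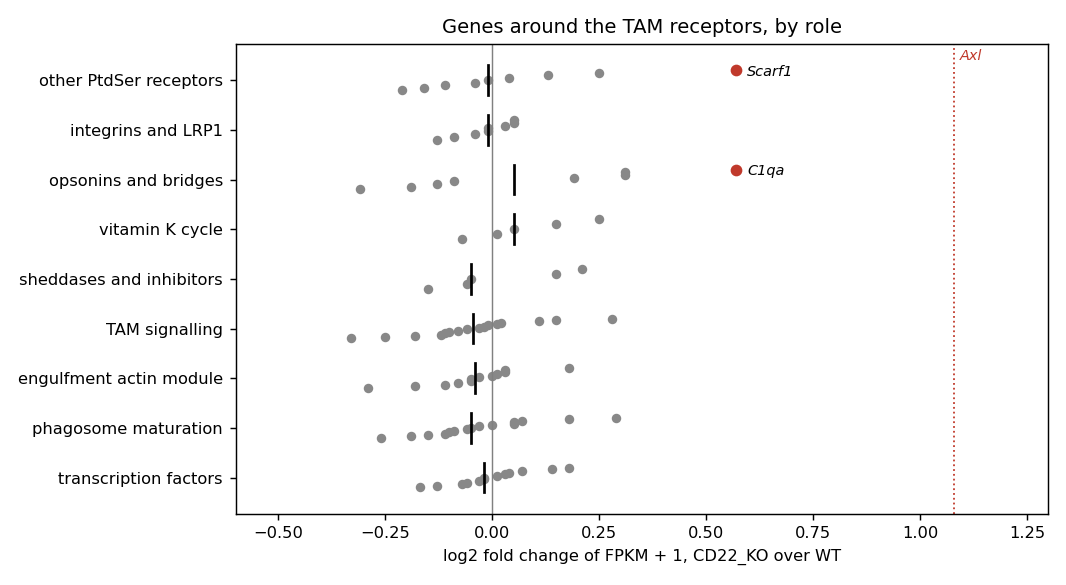
Log2 fold change on the log2(FPKM + 1) scale, CD22_KO over WT (horizontal axis), of the 91 tested genes around the TAM receptors by role, with black bars at list medians, red points for called genes and a dotted line at Axl. The medians lie between -0.05 and 0.05, Scarf1 and C1qa are at 0.57, and Axl at 1.08 is to the right of all of them.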

How the data were processed

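Poly(A) RNA of 6 libraries (3 labelled CD22 knockout, 3 wild type) was sequenced with a stranded kit, per the labels' protocols. Without roles, the submitters' processing notes list HISAT2, StringTie, edgeR, DESeq2, FastQC and cutadapt, and neither build nor annotation is given in the sources used here. The authors deposited FPKM per gene and library, a fold (per the values, mean knockout over mean wild type FPKM), its log2, and a p-value and q-value whose test is not stated. Gene positions are those of mouse GENCODE release 21 on GRCm38, where 99.7% of the IDs were found, and promoter windows from RefSeq (GRCm38.p6), which held 7 of the 7 genes.

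The 10777 genes that reached 1 FPKM in 3 or more libraries were put on the log2(FPKM + 1) scale and fitted by limma (version 3.58.1, under R 4.3.3). Group was the only term, and the moderation was robust and followed the trend of spread with level. Tests were 2-sided, and a gene was called at a Benjamini-Hochberg adjusted p under 0.05 over all genes tested. Ratios, shares and sums were compared by exact permutation over libraries (SciPy 1.17.1). Per the labels, each library carries its own batch code, so batch could not enter a fit and is part of the spread between libraries. Named are the 7 genes, 3 genes of smallest p per list, and the 3 profiles nearest to Axl and to Mertk. The members and lists were chosen with earlier results of these data known. Genes named for their position or as cell markers were chosen after their values were seen. Alternatives changed the pseudocount, filter, scaling, moderation, threshold, window and libraries, or added a replicate block. Without counts no counting intervals were possible.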

Additional observations from a re-analysis of the deposited data

How the results depend on the processing

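Axl kept its direction under all 14 alternatives (log2 fold change 0.99 to 1.27) and its call under 13. With no filter on low values, which tests all genes above 0 in at least 1 library (25499), 3 genes were called in place of 44, and 0 of the genes described here. The count was 28 without CD22_KO replicate 2 and 92 without CD22_KO replicate 3 (28 to 92 over single libraries), 11 without wild type libraries 1 and 2 and 78 at a threshold of 0.10. The cause was not tested. Gas6 changed sign when single libraries were left out (-0.06 to 0.10), as did the ligand sum (-1.87 to 6.19 FPKM) and log2 Mertk over Tyro3 (-0.33 to 0.44, and -0.01 without wild type libraries 1 and 2). Leaving out single libraries moved the median of the opsonin list over 0.02 to 0.21, that of the vitamin K list over 0.04 to 0.16, and the calls in the 9 lists over 0 to 2. A window of 5 Mb around Cd22 held 0 called genes. The labels do not say whether same-numbered libraries were paired. Deviations of same-numbered libraries correlated at 0.0559, -0.0336 and 0.0703 for numbers 1, 2 and 3, against -0.0937 to 0.0253 for unlike numbers. Libraries 1 and 3 of each group correlated best with their own number, and library 2 of each group did not. With a replicate block 63 genes were called, Axl among them (limma, adjusted p = 0.0173), Scarf1 was not (0.0547), and Mfge8 had an adjusted p of 0.086. Among the 39 genes followed through the alternatives, the block changed no other call. Unknown depth limits what can be said of Tyro3.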
